A study of Macaca mulatta with 8 samples.

Results

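Cluster 8 of the authors' annotation, a group of 930 cells within their conventional CD4 T cell class (Tconv), was described across genes. Members were all cells that the deposited annotation numbers 8, and they made up 930 of 17212 Tconv cells and of 25397 cells in all. The series followed regulatory T cells (Tregs) adoptively transferred into rhesus macaques, by droplet single-cell RNA sequencing of CD4-enriched blood cells on day 3 and day 20. On each day 4 sorted populations gave 1 library each: CFSE-positive cells (CFSE being a dye, taken here to mark the transferred cells), the CD25high CD127low fraction (named Endo in the labels, the surface phenotype of resident Tregs), and the CD127-positive fraction split into CD25-positive and CD25-negative cells. The 8 libraries therefore came without replicates, and the labels give no animal, age or treatment for any of them. All cells were thawed from cryopreserved blood mononuclear cells.

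Conventional CD4 T cells recognise peptides on MHC class II and help other immune cells, and they carry the interleukin 7 receptor (CD127, gene IL7R), which most Tregs carry at a low level. Naive cells circulate through lymph nodes and depend on the transcription factors TCF7 and LEF1. Memory cells have met antigen. Helper subsets are told apart by their transcription factors and chemokine receptors, among them GATA3 and PTGDR2 (CRTH2) in Th2 cells, CCR6 and RORA in Th17 cells, and CXCR5 in follicular helper cells.

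The authors' clusters were made from the same cells whose genes are compared here, and the sources used here do not give the method. A gene that separates cluster 8 from other cells is therefore a description of the cluster and not a test, and no p-value is given. Levels are CPM, the counts of unique molecular identifiers (UMIs, counted RNA molecules) scaled to a common total, and are summed over the cells of a set in 1 library. Ratios are log2 ratios after adding 10 CPM to both sides, which understates the difference of low genes. Intervals cover counting error only, at 95%. In the 4 libraries with at least 100 cluster 8 cells, the cluster held 432788 to 852511 UMIs and its cells had medians of 716 to 934 genes each.

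**Figure D1:**
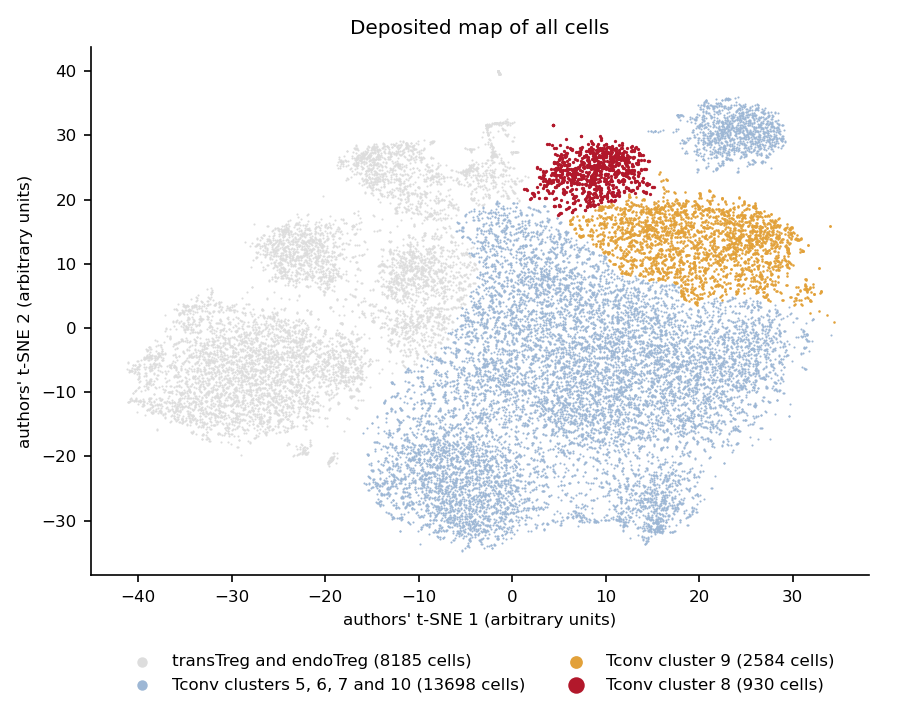
Each point is 1 of 25397 cells at its place on the authors' deposited t-SNE map (arbitrary units on both axes), coloured by the authors' class and cluster. The 930 cells of cluster 8 form 1 island that borders cluster 9, and 97.25% of the 30 nearest neighbours of its cells on the map are cluster 8 cells.

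On the deposited map, 97.25% of the 30 nearest neighbours of cluster 8 cells belonged to cluster 8, 1.70% to cluster 9 and 0.631% to cluster 7. Cells of cluster 8 were of similar depth to the rest of their class. Their median was 3380 UMIs in the CD25high CD127low library of day 3, where the other Tconv cells had 2998, and 2170.0 in the CD127-positive CD25-positive library of day 20, where the others had 2134. Mitochondrial RNA took 2.98 to 3.49% of the cluster's UMIs in the 4 large libraries and 3.36 to 3.83% of those of the other Tconv cells. Of the cell barcodes, 382 occurred in more than 1 library and 22 cluster 8 cells had one of these, but 0 barcodes were shared between cluster 8 cells of different libraries. By marker or depth rules, 51 cluster 8 cells looked like possible doublets, of 1855 such cells in all.

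The label of conventional CD4 cells was checked first against markers. IL7R (ENSMMUG00000001676) stood at 566 and 570.1 CPM in cluster 8 of the CD25high CD127low libraries of day 3 and day 20, and at 672 and 776 CPM in the CD127-positive CD25-positive libraries. The other Tconv cells had 587, 657, 900 and 1077 CPM in the same libraries, and the authors' endogenous Tregs 145, 216, 251 and 322 CPM. IL7R in cluster 8 was thus above the Treg level and at or below the level of its own class in each of the 4 libraries.

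Treg-defining transcripts were near the floor. FOXP3, the lineage transcription factor of Tregs, gave 3, 4, 1 and 0 UMIs in cluster 8 of the 4 libraries, which is 0 to 4.91 CPM, against 139.9 to 170 CPM in endogenous Tregs. CTLA4, an inhibitory receptor of Tregs, was at 1.55 to 15.3 CPM in cluster 8 and at 68.1 to 111 CPM in endogenous Tregs. The median UMI depth of the 4-library sets was 2758 in cluster 8 and 2832 in endogenous Tregs, and after thinning each cell to 1000 UMIs, FOXP3 was seen in 0.448% of cluster 8 cells (0.122 to 1.14%), 0.936% of other Tconv cells and 14.6% of endogenous Tregs.

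Markers of other cell types were partly missing. CD8A and CRTAM of the CD8 list, the B cell genes BANK1, EBF1 and PAX5, 5 of the monocyte genes (S100A8, S100A9, FCN1, CSF1R, FCER1G) and 5 of the platelet genes (among them PPBP and PF4) were at 0 in cluster 8 of all 4 libraries. A count of 0 allows up to 3.52 to 6.93 CPM per library (3 counts).

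Other members of these lists were present, some of them above the other Tconv cells. Of the 11 monocyte genes found, the 2 measured at 20 CPM or more had log2 ratios above 0 in every library, as had 14.6% of all measured genes. SERPINA1, a protease inhibitor made by monocytes and liver, was at 34.0 to 48.1 CPM against 29.8 to 40.6 CPM, and the adaptor TYROBP, also expressed by NK cells, stood at 75.3, 38.7, 23.1 and 57.2 CPM against 10.4 to 20.8 CPM. The summed monocyte list was at 78.6 to 127.6 CPM in cluster 8 and 48.0 to 71.6 CPM in the other Tconv cells, without overlap, and at 87.9 to 297 CPM in endogenous Tregs. By at least 3 UMIs of monocyte markers, 24 cluster 8 cells were among the 51 possible doublets. SOX13, a transcription factor and the 1 gene found of the gamma delta T cell list, gave 5, 3, 2 and 3 UMIs in cluster 8 (3.52 to 8.18 CPM) and 0 in the other Tconv cells and endogenous Tregs of the 4 libraries. The part of other cell types in the results was not tested.

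The summed B cell list was at 23.1 to 42.5 CPM in cluster 8 and 26.7 to 42.2 CPM in the other Tconv cells. CD4 itself was counted poorly throughout, with 0 to 3.09 CPM in cluster 8 and 3.41 to 5.03 CPM in the other Tconv cells, so it does not bear on the label. Hemoglobin HBB, a sign of red cells, was at 42.5 and 27.7 CPM in cluster 8 of the day 3 libraries. In cluster 8 it was at 0 on day 20, and the other Tconv cells had 2570 and 168 CPM on day 3. The share of cells with HBB did not differ in this way. After thinning, it was seen in 1.345% of cluster 8 cells (0.697 to 2.34%) and 1.53% of the others (1.29 to 1.79%).

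The make-up of cluster 8 followed the CD25 gate. In the CD25high CD127low libraries, 175 of 2037 Tconv cells were in cluster 8 on day 3 (8.59%, 7.41 to 9.89%) and 293 of 1356 on day 20 (21.6%, 19.4 to 23.9%). In the CD127-positive CD25-positive libraries, the cluster held 135 of 2675 cells on day 3 (5.05%, 4.25 to 5.95%) and 289 of 4450 on day 20 (6.49%, 5.79 to 7.26%). The CD25-negative libraries held 15 of 2960 on day 3 (0.507%, 0.284 to 0.834%) and 11 of 3620 on day 20 (0.304%, 0.152 to 0.543%).

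Every CD25-gated library thus had a share above the intervals of both CD25-negative libraries, and the CD25high CD127low library of day 20 stood above the other 3 gated ones. Between days the intervals overlapped for CD127-positive CD25-positive cells and did not overlap for CD25high CD127low cells. With 1 library per sort and day, a difference between days cannot be told apart from a difference between libraries, and the sort itself sets which cells enter. Counted over all cells of the library, Tregs included, the share was 5.23% in the CD25high CD127low library of day 3 and 12.5% in that of day 20.

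By sort, 468 cells (50.3%) came from CD25high CD127low libraries, 424 (45.6%) from CD127-positive CD25-positive, 26 (2.80%) from CD25-negative and 12 (1.29%) from CFSE-positive libraries. The CFSE-positive cells were 2 of 51 Tconv cells on day 3 and 10 of 63 on day 20, too few for gene values. By day, 327 cells came from day 3 and 603 from day 20.

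**Figure D2:**
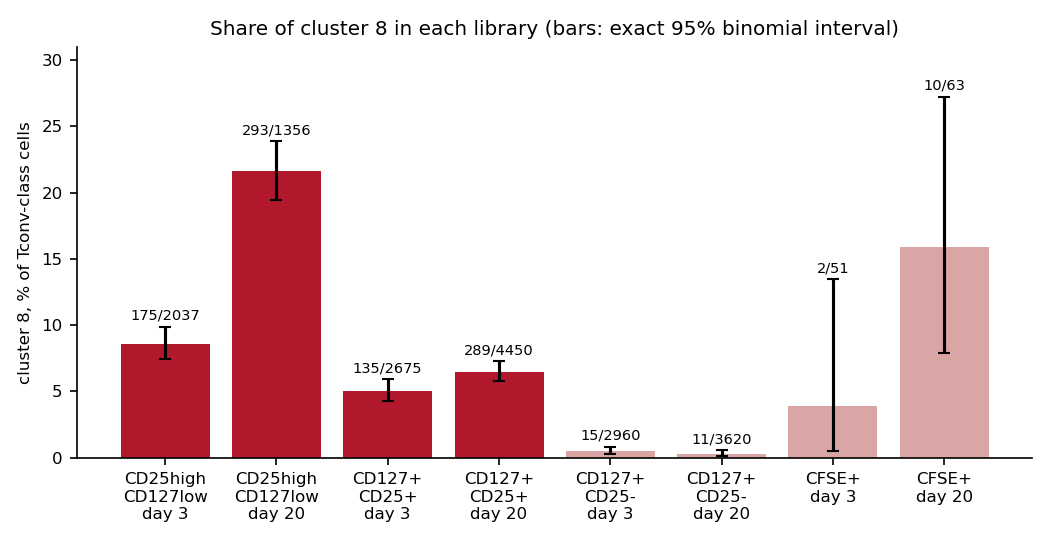
Bars give the percent of Tconv-class cells that are in cluster 8 in each library, with the exact 95% binomial interval as the error bar and the cell counts above it. Dark bars mark the 4 libraries with at least 100 cluster 8 cells, where shares run from 5.05 to 21.6%, and both CD25-negative libraries lie under 1%.

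Cluster 8 was then compared with the other Tconv cells within each of those 4 libraries. A gene was called where it was at least 2-fold apart the same way in every library, with at least 50 CPM on 1 side in each. Of 1575 genes that could be called, 14 were higher (0.889%) and 13 were lower (0.825%), and the median log2 ratio of the genes tested was -0.04. Per-library values below are in the order CD25high CD127low day 3 and day 20, then CD127-positive CD25-positive day 3 and day 20. The called genes include memory-associated calcium-binding proteins, a cytoskeletal adaptor and a nuclear lamin on the higher side. The lower side includes an integrin, an inhibitor of DNA binding, a costimulatory receptor and a naive-cell transcription factor.

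Genes linked to memory were higher together. S100A4 (ENSMMUG00000010979) and S100A6 (ENSMMUG00000008917) encode small calcium-binding proteins that mark antigen-experienced T cells. S100A4 was at 3838, 3131, 3447 and 2873 CPM in cluster 8 against 1518, 1369, 1122 and 1366 CPM. S100A6 was at 3143, 2381, 2629 and 2728 CPM against 984, 842, 962 and 978 CPM. For both genes every cluster 8 value lay above every value of the other cells, and S100A6 was seen in 85.8% of thinned cluster 8 cells against 52.4%.

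LMNA (ENSMMUG00000016096), the A-type lamin of the nuclear envelope, was at 345, 272, 263 and 368 CPM against 78.8, 84.9, 57.6 and 87.0 CPM. It was found in 26.7% of thinned cluster 8 cells and 6.26% of the others. HOPX (ENSMMUG00000017788), a homeodomain-only protein of differentiated T cells, was at 211, 232, 153 and 243 CPM against 90.5, 99.6, 71.0 and 90.0 CPM. Its lowest log2 ratio, 1.005, lay at the threshold, and it was no longer called with TMM scaling.

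The larger memory and activation list, 22 genes of which 20 were measured at 20 CPM or more, had a median log2 ratio of 0.57. Of these 20 genes, 17 had pooled ratios above 0 and 16 were above 0 in every library, where 534 of 3650 measured genes (14.6%) were above 0 in every library. Called higher were S100A4, S100A6 and LMNA, and ITGA4 of the same list was called lower. The integrin chain ITGB1 (CD29) was at 603 to 643 CPM against 294 to 414 CPM, without overlap, and reached 2-fold in 1 of 4 libraries (log2 ratios 0.62 to 1.01). The galectin gene LGALS1 had log2 ratios of 0.78 to 1.05 and ANXA1 (annexin A1) of 0.51 to 0.80. Against this direction, CD69, an early activation receptor that holds cells in tissue, was at 106, 75.1, 143 and 108 CPM in cluster 8 and at 277, 191, 296 and 231 CPM in the others.

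**Figure D3:**
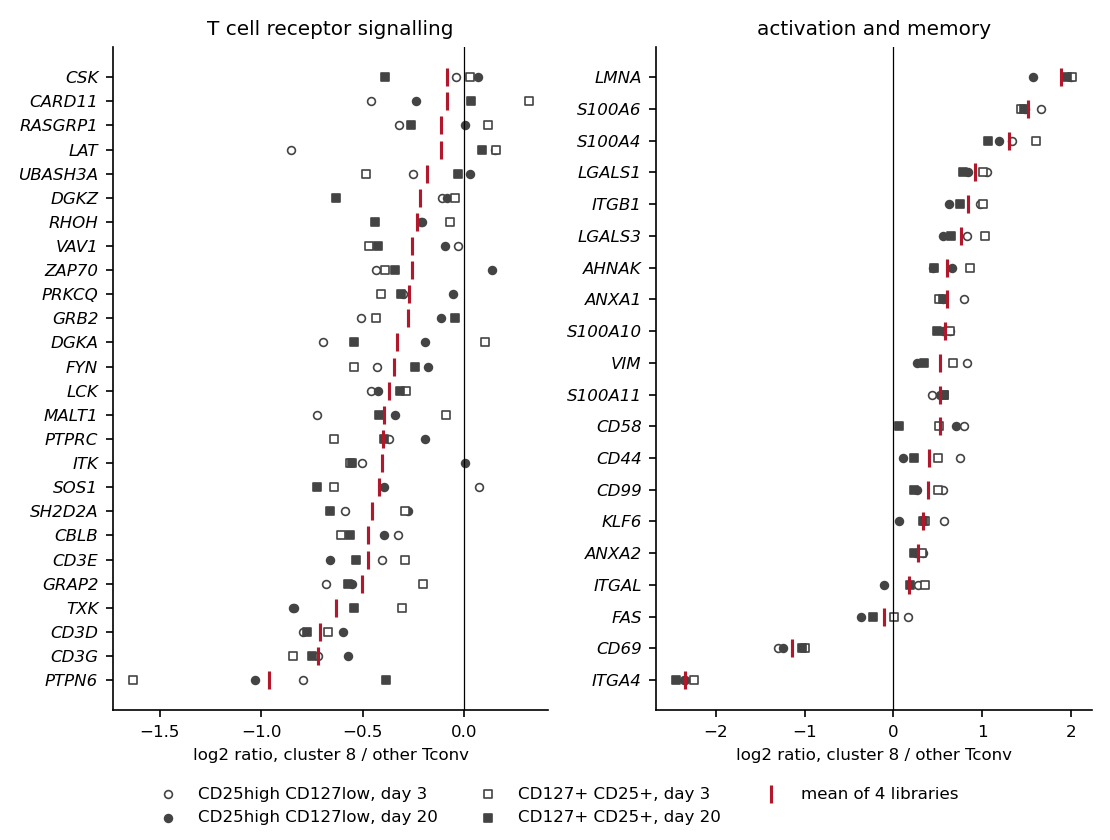
Each point is the log2 ratio of cluster 8 to the other Tconv cells in 1 of 4 libraries, and the red bar is the mean, for the measured members of the T cell receptor signalling list (left) and the activation and memory list (right). With the 4 libraries pooled, the ratios of all 26 signalling genes were below 0, and those of 17 of 20 memory genes were above 0.

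Cytoskeletal and signalling genes formed the next group. PDLIM1 (ENSMMUG00000000454), which links actin to alpha-actinin, stood at 198, 177, 148 and 193 CPM against 22.5, 29.0, 24.6 and 27.6 CPM. Its log2 ratios of 2.19 to 2.68 gave the highest mean of the genes called higher, 2.39, and it was seen in 17.6% of thinned cluster 8 cells and 2.62% of the others. MATK (ENSMMUG00000001917), a kinase that phosphorylates the inhibitory tyrosine of Src-family kinases, was at 91.6, 93.8, 92.4 and 109.8 CPM against 15.2, 21.2, 13.9 and 17.9 CPM.

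TSPAN2 (ENSMMUG00000017421), a tetraspanin, was at 91.6, 84.5, 69.3 and 101 CPM in cluster 8, and the other cells had 13.5 to 20.8 CPM. DST (ENSMMUG00000000777), the cytoskeletal linker dystonin, was at 72.0, 65.7, 104 and 77.3 CPM, and the others had 15.3 to 24.6 CPM. For both genes the lowest cluster 8 value lay above the highest value of the other cells.

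TNFRSF18 (ENSMMUG00000014205) encodes GITR, a costimulatory receptor of activated T cells that Tregs carry constitutively. It was at 154, 142, 153 and 136 CPM against 43.2, 38.2, 31.4 and 39.2 CPM. It was the only called gene of the Treg core list, whose 7 measured members had a median log2 ratio of 0.26. Of these members, 3 were above 0 and 3 below 0 in every library, where 14.6% and 22.2% of all measured genes were. IL2RA, which encodes CD25, was at 103, 157, 64.7 and 99.0 CPM against 124, 110.2, 59.8 and 67.5 CPM, so its direction differed between libraries (log2 ratios -0.25 to 0.49).

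TTLL10 (ENSMMUG00000045769), a member of the tubulin tyrosine ligase-like family, had the largest ratio in its weakest library of all genes called higher (log2 2.22). It stood at 94.9, 77.4, 76.3 and 86.6 CPM in cluster 8 and at 8.19 to 9.24 CPM in the other Tconv cells. In the RefSeq gene table (T2T-MMU8v2.0), TTLL10 and TNFRSF18 lie on the same chromosome with 1 gene between them. How the authors' counting assigned reads between such neighbours is not given in the sources used here. After thinning, TNFRSF18 was seen in 11.9% of endogenous Tregs and 12.4% of cluster 8 cells, and TTLL10 in 1.64% and 8.74%. The part of read assignment in the TTLL10 level was not tested.

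Also called higher were GNLY, SPINK2 and BCL2A1. GNLY (ENSMMUG00000047204), the antimicrobial granule protein granulysin, was at 244, 149, 120.2 and 299 CPM against 37.3, 48.8, 15.6 and 27.3 CPM. It was uneven among cells: 10.5% of thinned cluster 8 cells and 1.53% of the others held a UMI of it, and without thinning 16.8 and 2.27%. BCL2A1 (ENSMMUG00000003364), an anti-apoptotic BCL2 relative, was at 88.3, 99.7, 76.3 and 97.4 CPM against 30.9 to 41.9 CPM. SPINK2 (ENSMMUG00000040987), a serine protease inhibitor of the Kazal type, was at 62.2, 134, 62.4 and 86.6 CPM against 14.6 to 35.1 CPM. Cluster 9 held SPINK2 at a similar level, with a pooled log2 ratio of cluster 8 to cluster 9 of 0.09. After thinning, it was seen in 8.52% of cluster 8 cells and 8.09% of cluster 9 cells.

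GNLY stood without the other granule genes. GZMB (granzyme B) was at 3.27, 29.3, 2.31 and 3.09 CPM in cluster 8 against 28.2, 67.9, 6.44 and 16.6 CPM, and NKG7 was at 1.55 to 9.82 CPM against 9.20 to 17.4 CPM. GZMH, GZMK, CCL5, CX3CR1, FGFBP2, KLRD1 and SLAMF7 were at 0 in cluster 8 of the 4 libraries. TYROBP, an adaptor of NK cell and myeloid receptors, was higher in cluster 8 of all 4 libraries, without overlap. The summed NK cell list, which includes GNLY, was at 155 to 368 CPM in cluster 8 and at most 81.5 CPM in the other cells. Endogenous Tregs had 64.5 to 117 CPM. Only 2 of its 11 genes were measured at 20 CPM or more, so the sum is not separate from the GNLY values. In cluster 8, 4 of the 11 (FCER1G, KLRC1, KLRC3, KLRD1) were at 0. The part of NK-like cells in the GNLY and TYROBP values was not tested.

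**Figure D4:**
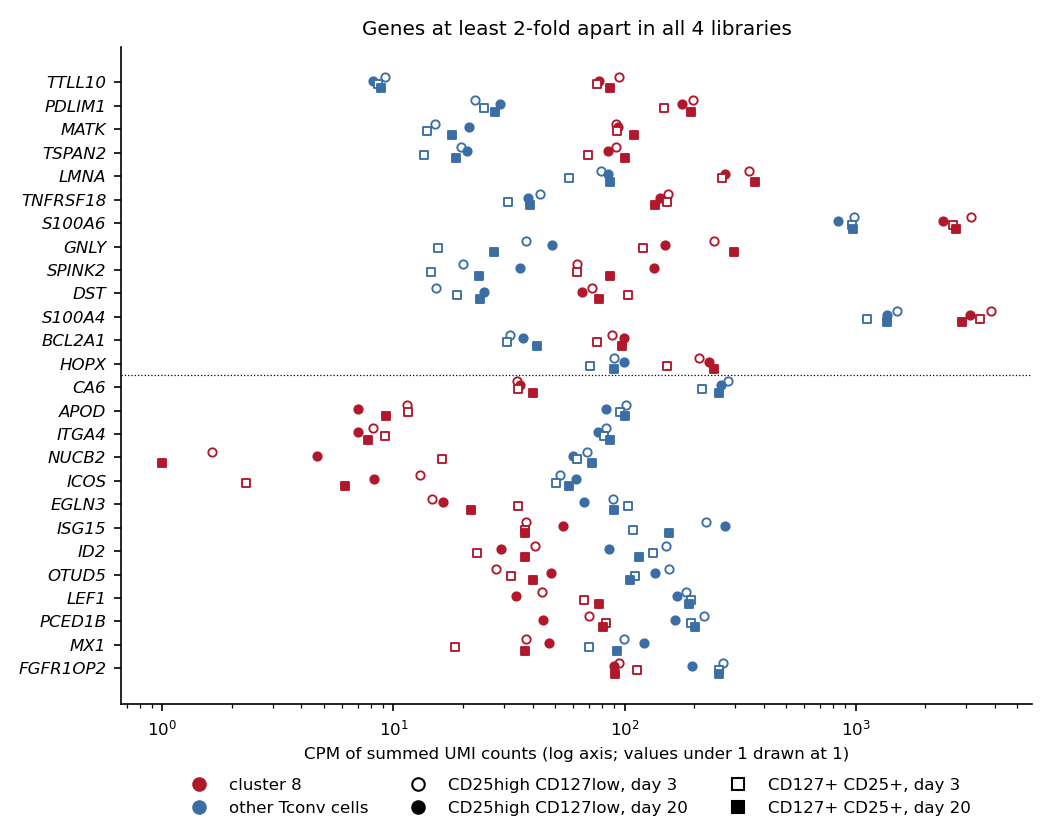
CPM (log axis) of 13 genes called higher (above the dotted line) and 13 called lower in cluster 8 (red) and the other Tconv cells (blue), with 1 marker per library. For PDLIM1, the red markers sit between 148 and 198 CPM and the blue ones between 22.5 and 29.0 CPM. For ITGA4, red lies between 7.04 and 9.24 CPM and blue between 76.8 and 86.9 CPM.

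The genes called lower included the integrin chain ITGA4 and the costimulatory receptor ICOS, while the costimulatory receptor TNFRSF18 was called higher. ITGA4 (ENSMMUG00000000300), the alpha 4 integrin chain that pairs with ITGB1 or ITGB7 for entry into inflamed or gut tissue, was at 8.18, 7.04, 9.24 and 7.73 CPM in cluster 8 and at 83.5, 76.8, 81.4 and 86.9 CPM in the others. The log2 ratios were -2.45 to -2.25, and the gene was seen in 0.336% of thinned cluster 8 cells (0.0694 to 0.980%) and 8.13% of the others. Its partner ITGB7 was not lower, at 152 to 178 CPM against 134 to 152 CPM. ICOS (ENSMMUG00000002648), a costimulatory receptor, was at 13.1, 8.21, 2.31 and 6.19 CPM against 50.6 to 61.4 CPM, from 8, 7, 1 and 4 UMIs in cluster 8.

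Chemokine receptors that guide cells to gut and follicles were among the genes too low for the expression minimum, and they are named here after their values were seen. CXCR5, the receptor for B cell follicles, had 0 UMIs in cluster 8 of any library, which allows up to 1.13 CPM over all libraries (3 counts), while the other Tconv cells had 17.1 to 21.7 CPM. CCR9, a receptor for the small intestine, was at 0, 0, 2.31 and 0 CPM against 27.9, 16.4, 29.2 and 29.97 CPM. Without the minimum, these genes were 2 of 7 more called lower, besides CAMK2D, CHD7, IFIT1, LPAR6 and TRAT1, and 7 more were called higher (AKAP12, CD200R1, FHL2, GPR146, ID3, PIK3AP1, YBX3). CCR7, the chemokine receptor that takes naive cells to lymph nodes, was at 0 to 1.17 CPM in cluster 8 and 2.27 to 3.29 CPM in the others, near the floor in both.

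Transcription factors differed in opposite ways within the ID family. ID2 (ENSMMUG00000003237), an inhibitor of E protein transcription factors that supports effector cells, was at 40.9, 29.3, 23.1 and 37.1 CPM against 152, 86.0, 133 and 116 CPM. Its relative ID3, which supports long-lived memory cells, was at 47.4, 86.8, 57.8 and 97.4 CPM in cluster 8 and at 14.99, 21.5, 7.49 and 14.3 CPM in the others. ID3 had log2 ratios of 1.20 to 2.14 and missed the minimum of 50 CPM in the CD25high CD127low library of day 3. After thinning, ID3 was seen in 5.605% of cluster 8 cells (4.19 to 7.32%) and 1.30% of the other Tconv cells. Endogenous Tregs had 4.71% (3.95 to 5.56%), an interval that overlaps that of cluster 8.

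LEF1 (ENSMMUG00000023256), a naive-cell transcription factor, was at 44.2, 34.0, 67.0 and 77.3 CPM against 184, 170, 194 and 191 CPM. TCF7, its relative, was at 90.1 to 116 CPM against 162 to 203 CPM, without overlap and under the 2-fold threshold (log2 ratios -0.92 to -0.69). Over the naive and quiescent list, 12 measured genes had a median log2 ratio of -0.31, with 4 above 0 and 6 below 0 in every library. Of all measured genes, 14.6% were above 0 and 22.2% below 0 in every library. LEF1 was the only gene of this list called lower.

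The other genes called lower have less to do with each other. CA6 (ENSMMUG00000019687), a secreted carbonic anhydrase, was at 34.4 to 40.2 CPM against 217 to 281 CPM, and APOD (ENSMMUG00000031415), the lipid carrier apolipoprotein D, at 7.04 to 11.6 CPM against 83.6 to 102 CPM. NUCB2 (ENSMMUG00000005895), a calcium-binding protein, gave 1, 4, 7 and 0 UMIs in cluster 8, which is 1.64, 4.69, 16.2 and 0 CPM, against 60.0 to 72.2 CPM. EGLN3 (ENSMMUG00000000040), an oxygen-sensing prolyl hydroxylase, was at 14.7 to 34.7 CPM against 66.9 to 104 CPM. OTUD5 (ENSMMUG00000004558, a deubiquitinase), PCED1B (ENSMMUG00000002203) and FGFR1OP2 (ENSMMUG00000006468) had log2 ratios of -2.13 to -1.21, -1.69 to -1.13 and -1.40 to -1.04. Not all of these genes were low against cluster 9. With libraries pooled, log2 ratios of cluster 8 to cluster 9 were 0.30 for APOD and -0.25 for OTUD5. They were -0.77 for NUCB2, -0.97 for PCED1B, -1.11 for FGFR1OP2, -1.25 for CA6 and -2.05 for EGLN3. After thinning, APOD was seen in 0.897% of cells of cluster 8, 0.470% of cluster 9 and 10.55% of cluster 7.

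ISG15 (ENSMMUG00000001819) and MX1 (ENSMMUG00000015329), antiviral genes induced by type I interferon, were called lower, and these calls depended on which cells were compared. ISG15 was at 37.6, 54.0, 37.0 and 37.1 CPM in cluster 8 against 225, 272, 108 and 156 CPM. The pooled level was 1819 CPM in cluster 10 and 36.9 CPM in cluster 7, against 43.1 CPM in cluster 8. With cluster 10 left out of the other cells, ISG15, MX1, ICOS and HOPX lost their calls, which left 13 genes higher and 10 lower. Over the interferon list, 15 of 16 measured genes were below 0 against all other Tconv cells (median log2 ratio -0.38). Against cluster 10, 25 of 25 were below 0 (-2.18), and against cluster 7, 10 of 14 were above 0 (0.09). The medians of all measured genes were -0.03, 0.005 and -0.03 in the same order.

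Genes of the T cell receptor and its signalling cascade were lower as a group but by less than the threshold. The invariant receptor chain CD3D was at 738, 743, 719 and 716 CPM in cluster 8 against 1285, 1128, 1150.0 and 1230.0 CPM, and CD3G at 76.3 to 92.7 CPM against 143 to 157 CPM. LCK, the kinase that starts signalling, was at 191 to 221 CPM against 241 to 278 CPM. None of these sets overlapped between cluster 8 and the other cells. Of 26 measured signalling genes, 26 had pooled ratios below 0 (median log2 ratio -0.34), 17 were below 0 in every library and 0 were called, where 810 of 3650 measured genes (22.2%) were below 0 in every library and the median of all was -0.03.

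The direction of this list held against most other clusters but not all. It was below 0 for 25 of 25 measured members against cluster 7, 23 of 25 against cluster 9 and 24 of 26 against cluster 10. Against cluster 5 it was below 0 for 21 of 25, and against cluster 6 for 13 of 24. Median log2 ratios of the list were -0.37, -0.24, -0.26, -0.64 and -0.08 in this order. Those of all measured genes were -0.03, -0.07, 0.005, -0.34 and 0.14, so most genes were below 0 against cluster 5 too. ZAP70, the kinase that binds the phosphorylated receptor, differed in direction between libraries, with log2 ratios of -0.43 to 0.14.

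Helper subset genes were then examined. The Th2 list held 1 measured gene, IL4R (the receptor for interleukin 4), at 250.3, 243, 166 and 269 CPM against 99.7, 103, 113 and 120.1 CPM. IL4R was 2-fold higher in 3 of 4 libraries, with a lowest log2 ratio of 0.53. GATA3, the master transcription factor of Th2 cells, was counted by 7, 14, 11 and 15 UMIs in cluster 8, which is 11.5, 16.4, 25.4 and 23.2 CPM, against 3.29 to 7.16 CPM. PTGDR2, the prostaglandin D2 receptor of Th2 cells, was counted by 14, 10, 11 and 12 UMIs, which is 22.9, 11.7, 25.4 and 18.6 CPM, against 0.394 to 2.39 CPM.

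For GATA3 and PTGDR2 all cluster 8 values lay above all others, at levels too low for a call. After thinning, PTGDR2 was seen in 1.79% of cluster 8 cells (1.03 to 2.90%), 0.0416% of the other Tconv cells and 0.0713% of endogenous Tregs, so it was present in a small share of the cluster's cells at this depth. The cytokines IL4 and IL5 gave 2 UMIs each in the whole cluster.

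Th17 genes were lower. Of the 5 measured members, 5 were below 0 in every library (median log2 ratio -0.97) and 0 were called. Of all measured genes, 22.2% were below 0 in every library. CCR6, a receptor for mucosal tissue, was at 1.64, 4.69, 6.93 and 1.55 CPM against 20.6, 26.6, 23.8 and 26.4 CPM, and KLRB1 (CD161) at 6.93 to 15.3 CPM against 21.6 to 45.4 CPM. RORA, a transcription factor of Th17 cells, was at 5.87 to 16.4 CPM against 24.2 to 30.4 CPM. The high CCR6 values were those of cluster 9. After thinning, CCR6 was seen in 0.336% of cells of cluster 8, 0.334% of cluster 7 and 0.198% of cluster 6, and in 9.13% of cluster 9. KLRB1 was seen in 0.785% of cells of cluster 8, 1.13% of cluster 7 and 6.35% of cluster 9. The Th1 genes TBX21, CXCR3 and IFNG were at 0 in cluster 8 of the 4 libraries, and the other Tconv cells had TBX21 at 0.920 to 4.44 CPM.

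Metabolic and housekeeping lists stayed close to all genes. Nuclear oxidative phosphorylation had a median log2 ratio of -0.01 over 27 measured genes, glycolysis 0.07 over 9, the actin cytoskeleton -0.06 over 21 and ribosomal protein genes 0.05 over 81, with 0 genes called in any of these lists. Proliferation genes had a median of 0.39 over 5, none called, and MKI67, a marker of dividing cells, was at 0 to 10.6 CPM in cluster 8.

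The nearest of the other 5 Tconv clusters was cluster 9. Over 2298 genes with all libraries pooled, the Spearman correlation of log2 levels was 0.954 with cluster 9, 0.917 with cluster 7, 0.871 with cluster 10, 0.866 with cluster 6 and 0.814 with cluster 5. These clusters share libraries in different proportions, and 30 genes were 2-fold apart from cluster 9 against 82 from cluster 7. Cluster 9 held the memory genes at similar levels. Against it, 6 of 20 members of the memory list were above 0 and 14 below. The median log2 ratio was -0.15, where that of all measured genes was -0.07. LMNA was at 263 CPM in cluster 9 and 307 CPM in cluster 8.

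Within the same 4 libraries, 3 of 1574 genes were called higher in cluster 8 than in cluster 9 (0.191%) and 7 lower (0.445%). TTLL10 (11.7 to 18.3 CPM in cluster 9) and BCL2A1 (21.6 to 30.8 CPM) were among those on the higher side, and for both genes every cluster 8 value lay above every cluster 9 value. On the lower side, CCR6 stood at 89.2, 108, 94.9 and 98.8 CPM and KLRB1 at 60.7 to 123.1 CPM in cluster 9, both far above the cluster 8 values given before. ID2 was at 146 to 195 CPM there and EGLN3 at 98.2 to 153 CPM. CTSL (cathepsin L), CA6 and TNFRSF25 (death receptor 3) were lower too, with log2 ratios of -2.00 to -1.32, -1.60 to -1.22 and -1.48 to -1.11.

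Against each of the 5 other Tconv clusters separately, with libraries pooled, 4 of 2298 genes were at least 2-fold higher in cluster 8 than in every one (0.174%) and 5 lower (0.218%). The higher genes were TTLL10 at 81.7 CPM (5.86 to 15.03 in the others), ID3 at 73.7 CPM (1.45 to 14.1), GPR146, an orphan G protein-coupled receptor, at 58.6 CPM (0.965 to 12.2), and PDLIM1 at 182 CPM (3.05 to 72.3). The lower genes were ID2 at 35.5 CPM (144 to 1735), ITGA4 at 9.45 CPM (48.0 to 114), SCML4 at 23.4 CPM (65.0 to 133), GZMM at 1.89 CPM from 5 UMIs (16.2 to 293) and UBAC2 at 20.8 CPM (51.6 to 68.6). Clusters 5 and 6 come mostly from the CD25-negative libraries, so those pairs also compare sorts.

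Several genes called against all other Tconv cells were therefore not at their peak in cluster 8. GNLY was at 225 CPM in cluster 8 and 1280 CPM in cluster 5, S100A4 at 3312 and 9375 CPM, HOPX at 217 and 941 CPM, and MATK at 96.4 and 168 CPM. Cluster 5 differed from cluster 8 in GZMB, at 5342 CPM against 12.5 CPM. In cluster 6, S100A4 was at 58.9 CPM, and LEF1 was at 263 CPM there against 52.9 CPM in cluster 8.

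**Figure D5:**
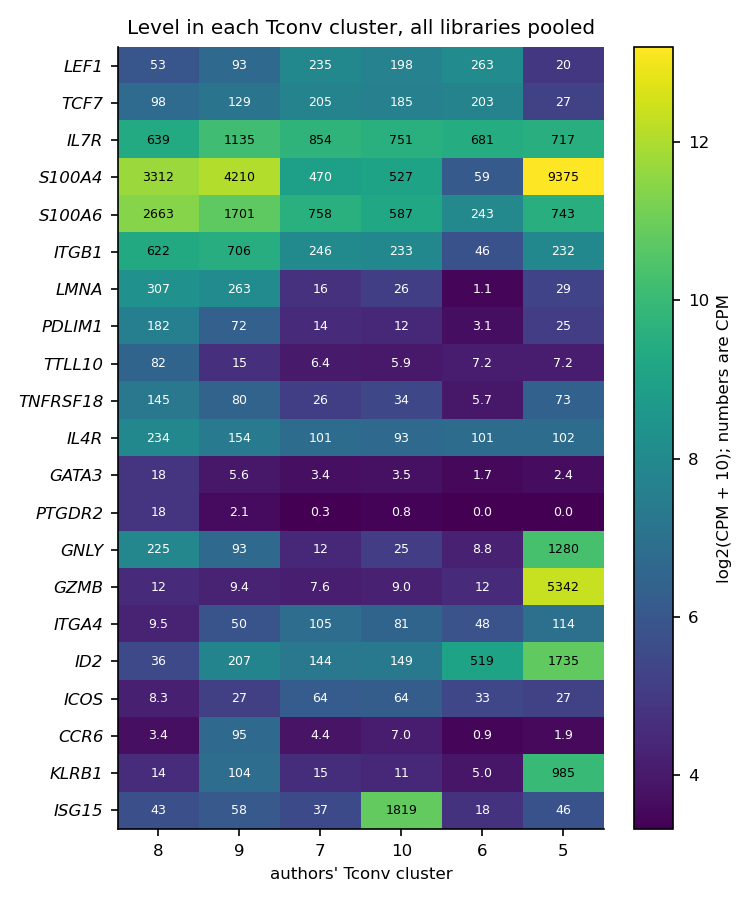
Pooled level of 21 genes in the 6 Tconv clusters, ordered by similarity to cluster 8, coloured by log2(CPM + 10) with the CPM printed. Cluster 8 has S100A4 at 3312 CPM, nearest to cluster 9 (4210), and the lowest ITGA4 (9.45) and ID2 (35.5) of the 6 clusters.

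Days and sorts were next compared within cluster 8. Between day 20 and day 3, 0 of 1644 genes were 2-fold higher (0.0%) and 0 lower (0.0%) in both sorts. In the other Tconv cells 0 of 1691 were higher and 1 was lower (0.0591%), which was HBB. At 1.5-fold, a threshold added after the values were seen, 12 cluster 8 genes were higher on day 20 (0.73%) and 4 lower (0.243%). ID3 was at 86.8 and 97.4 CPM on day 20 against 47.4 and 57.8 CPM on day 3, and CDKN1B, an inhibitor of the cell cycle, at 143 and 149 CPM against 88.3 and 80.9 CPM. CISH, a feedback inhibitor induced by cytokine receptors, was lower, at 85.6 and 85.1 CPM against 162 and 143 CPM. In the other Tconv cells 0 genes were 1.5-fold higher and 1 lower, but those sets held 2931507 to 9142499 UMIs each and so varied less by counting error.

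Between CD25high CD127low and CD127-positive CD25-positive cells of cluster 8, again 0 of 1632 genes were 2-fold higher (0.0%) and 0 lower (0.0%) on both days. At 1.5-fold, 7 were higher (0.429%) and 0 lower (0.0%), and in the other Tconv cells 3 of 1664 were higher (0.18%) and 1 lower (0.0601%). The sort gene IL2RA was among them, at 103 and 157 CPM on the 2 days against 64.7 and 99.0 CPM, and it was also among the 3 of the other Tconv cells. IFI6, an interferon-induced gene (113 against 67.0 and 144 against 78.9 CPM), and CHCHD2 were higher too. IL7R was at 566 and 570.1 CPM against 672 and 776 CPM, in the direction of the gate and under 1.5-fold.

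The CD127-positive sorts could be compared only thinly, since the CD25-negative cells of cluster 8 numbered 15 and 11, with 47676 and 24306 UMIs, so that 50 CPM stands for 1 to 3 counts. Of 1667 genes, 31 were higher in CD25-positive cells (1.86%) and 38 lower (2.28%), and these counts turned from 31 and 38 to 150 and 10 with TMM scaling. IL2RA was among the higher (log2 ratios 2.90 and 3.45), and GZMK (-2.87 and -4.13) and ID2 (-1.50 on both days) among the lower. The other genes named by rank are DPM2, CAB39, HSPA9, TCF25, CYFIP2, CCDC82 and GLUD1 on the higher side and ADNP2, NUDT16L1, TMEM9, BEX1, GTF2H3 and MTERF4 on the lower side, and all of these rest on very few counts on the CD25-negative side.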

How the data were processed

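Single-cell RNA of 8 libraries was captured on the 10x 3' v2 platform, per the labels' protocols. Cell Ranger 2.1.1 comes from the submitters' processing notes. Genome build, cell filters and clustering method: not given in the sources used here. Whole UMI counts were deposited per gene and cell (16429 genes, 25397 cells, 67627231 UMIs), unscaled by the authors as far as the files record, and their cell totals equal the deposited totals for 25397 cells. Class, cluster and t-SNE positions are the authors' own, deposited as cell annotation and map scores. Identifiers without a symbol were named from the reference table (309), and 3146 genes stayed unnamed or had LOC names.

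Counts were summed per library and cell set and scaled to CPM (Python 3.11.15, numpy 2.4.6). The rule for calls is in the report. Named are up to 15 called genes per direction by the smallest ratio over libraries (10 between days, 8 between sorts), leaving out ribosomal protein, mitochondrial and unnamed genes, plus members of 33 gene lists as examples. Some results that these rules name are not reported here. The members and lists were chosen with earlier results of these data known. Intervals are exact Poisson or Clopper-Pearson. All cells were kept and no doublet caller was run. The comparisons of CD25high CD127low with CD127-positive CD25-positive cells, with cluster 9 and with each cluster were added after the data were seen. The calling step was tested on simulated data. Alternatives included TMM factors (edgeR 4.0.16) and median-of-ratios size factors (DESeq2 1.42.0), used for scaling only.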

Additional observations from a re-analysis of the deposited data

How the results depend on the processing

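A call asks for every library used, so leaving libraries out could only keep or add calls. The 27 genes called against the other Tconv cells thus had to keep their calls with any 1 of the 4 libraries left out. The counts were then 14 to 18 higher and 13 to 19 lower. Scaling by TMM, by median-of-ratios or on named genes moved the genes by a median of -0.03, 0.05 and 0.02 and cost 1 call, HOPX. Against 14 higher and 13 lower genes, the counts were 22 and 24 with libraries of at least 200 cells and 28 and 30 with sums pooled over libraries. Lower genes numbered 6 with a pseudocount of 30 CPM, 20 without an expression minimum and 20 in the CD127-positive libraries alone. Thinning each cell to 1000 UMIs cost the calls of GNLY, SPINK2, DST, S100A4, BCL2A1, ICOS, ISG15 and MX1, and leaving out doublet-like cells that of BCL2A1. Against cluster 9 (3 higher, 7 lower), the higher genes numbered 9 without a minimum, 5 with at least 200 cells, 7 pooled and 6 in CD127-positive libraries. The lower genes there numbered 11 with a pseudocount of 1 CPM, 22 without a minimum, 14 with at least 200 cells, 18 pooled, 15 in CD127-positive libraries, and 7 to 11 with 1 library left out, 11 without the CD25high CD127low library of day 20. The 0 counts between days became 1 higher with a pseudocount of 1 CPM and 1 higher and 1 lower without a minimum, and those between the CD25-positive sorts 1 and 2 higher under the same settings. CD25-positive against CD25-negative cells gave 150 and 10 (TMM), 75 and 15 (median-of-ratios), 14 and 13 (pseudocount 30 CPM) and 545 and 148 (no minimum). The share of Tconv cells was 7.79% as a mean over libraries. With means in place of medians, the heat shock list turned from -0.11 to 0.00723 and homing from 0.12 to -0.26. Where not stated, the cause was not tested. Cluster 8 was set against the other cells within each library. The ratios are thus paired by library, but no result comes from a test, and each sort and day had 1 library.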

Other observations

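Among ligands and receptors that the text above does not cover, the cytokine and CD40LG list had 9 measured members (median log2 ratio -0.11). Of these, 3 were above 0 and 5 below 0 in every library, where 14.6% and 22.2% of all measured genes were, and 0 were called. TNFSF13B (BAFF, a survival factor for B cells) had log2 ratios of -1.91 to -0.82 and TNFSF8 (CD30 ligand) of -1.66 to -0.74. LTB (lymphotoxin beta) had -0.78 to -0.50, while TNFSF10 (TRAIL, a death ligand) had 0.55 to 0.81. CD40LG, the main helper ligand for B cells, was at 49.1, 70.4, 43.9 and 75.8 CPM in cluster 8 and at 49.2, 74.4, 61.5 and 82.8 CPM in the other Tconv cells, with groups that overlapped.

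In the naive and quiescent list, BACH2, a repressor that restrains effector differentiation, was above 0 in every library (log2 ratios 0.28 to 0.96). S1PR1, the receptor for leaving lymph nodes, was at 47.4, 71.6, 55.5 and 65.0 CPM against 41.1, 48.8, 39.0 and 54.3 CPM. ITGAE (CD103), which binds epithelium, had log2 ratios of -0.80 to -0.41. STMN1, a microtubule regulator in the proliferation list, had ratios of 0.44 to 1.05, and PCNA, which dividing cells need, of -0.27 to 0.40.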
